A study of Mus musculus with 24 samples.

Results

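The 10 genes used here as markers of tissue macrophages (Cd209f, Mrc1, Cd163, Csf1r, Adgre1, Aif1, Cd68, Lyz2, Mpeg1 and Gpnmb) were followed across kidney, left ventricle and skeletal muscle of old and young mice. They were taken by gene symbol from the deposited table, 10 of its 55401 genes, and no filter on their values was applied. The set was chosen with earlier results of these data known. Sequencing was of ribosome-depleted RNA of C57BL6/J mice aged 86 weeks (replicates 11 and 12, females; 14 and 17, males) or 16.5 weeks (replicates 14 and 15, females; 19 and 20, males). The labels name no allele and no treatment. Each of the 8 mice gave a library from each of the 3 tissues, 24 libraries in all, and replicate 14 is a different mouse at each age. The labels name neither the muscle nor the kidney region sampled.

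Macrophages live in every organ, where they engulf dying cells and debris, clear haemoglobin and modified proteins, and kill microbes. They depend on signalling through the receptor for colony-stimulating factor 1, and those of heart, muscle and kidney come in part from embryonic precursors and in part from blood monocytes. The genes followed here cover surface lectins and scavenger receptors (Cd209f, Mrc1, Cd163), lineage receptors (Csf1r, Adgre1), a cytoskeletal protein (Aif1) and proteins of the lysosome and of killing (Cd68, Lyz2, Mpeg1, Gpnmb). These are bulk samples, in which fewer macrophages and less RNA per macrophage cannot be told apart.

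Total counts per library ran from 59199894 to 82924553 in kidney, 52602585 to 93826618 in left ventricle and 59073289 to 103797551 in skeletal muscle. Levels are given as CPM (a gene's counts scaled to a common library total) on library sizes normalised by TMM, which scales libraries so that most genes match. All 10 genes passed the low-count filter in every comparison. The tissues carried their own markers: Umod was at 1235 CPM or more in every kidney, Myh6 at 30009 CPM or more in every left ventricle and Myh4 at 88345 CPM or more in every skeletal muscle. Traces of Myh6 reached 26.8 CPM in a kidney and 342.9 CPM in a skeletal muscle. Other macrophage genes were present in all 24 libraries: C1qa, a chain of complement C1q, was at 2.36 CPM or more, and Spi1, which encodes the transcription factor PU.1, at 2.06 CPM or more. Neutrophils also make lysozyme. Ly6g stayed at or under 0.522 CPM and S100a8 at or under 0.944 CPM everywhere, and 9 neutrophil genes summed to 2.80 to 6.23 CPM. In left ventricle S100a8 had 0.397 to 0.944 CPM at 86 weeks and 0.246 to 0.386 CPM at 16.5 weeks. Ly6g had 0.269 to 0.304 CPM and 0.279 to 0.522 CPM at the same ages. The part of neutrophils in the Lyz2 levels was not tested.

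The 3 tissues differed in which markers were abundant. Kidney had little of the scavenger and lectin receptors Cd163, Mrc1 and Cd209f but the most Csf1r and Mpeg1. The left ventricle was highest for Lyz2, Mrc1, Adgre1 and Cd68. Skeletal muscle had the most Cd209f. The 10 genes summed to 89.7 to 192 CPM in kidney at 86 weeks and 82.3 to 98.6 CPM at 16.5 weeks. The sums were 152 to 229 CPM and 149 to 178 CPM in left ventricle, and 68.3 to 174 CPM and 47.3 to 118 CPM in skeletal muscle, with 86 weeks given before 16.5 weeks. In the plot of length-scaled levels Lyz2 stands above all other markers in left ventricle.

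**Figure D1:**
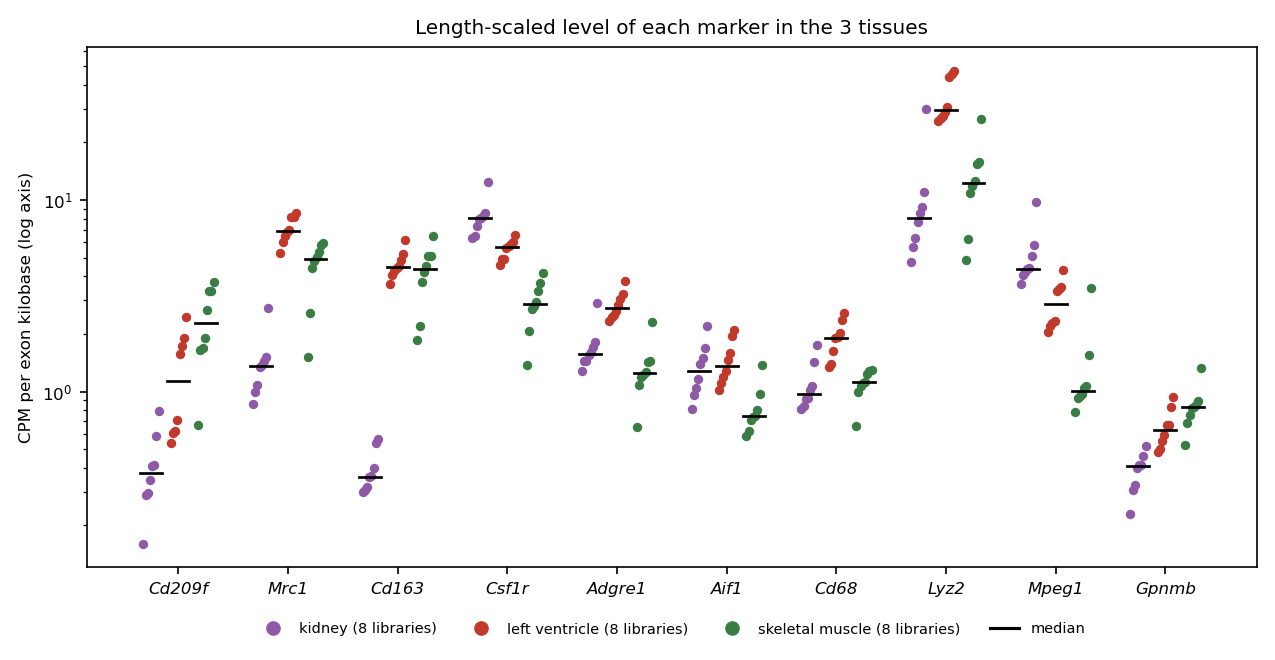
CPM per kilobase of exon (log axis) of each marker in kidney, left ventricle and skeletal muscle, with a point per library (8 per tissue, both ages) and the median as a bar. Median Cd163 was 0.359 in kidney, 4.48 in left ventricle and 4.38 in skeletal muscle, and median Lyz2 was 8.07, 29.6 and 12.2 in the same tissues.

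Of the 10 genes, 9 passed the threshold between kidney and left ventricle (2 higher and 7 lower in kidney), against 35% of the 45182 genes tested (edgeR quasi-likelihood test, Benjamini-Hochberg adjusted p under 0.05). Between kidney and skeletal muscle 8 passed (4 higher, 4 lower in kidney), against 45.5% of all genes. Between left ventricle and skeletal muscle 9 passed (7 higher, 2 lower in left ventricle), against 27.8%. These shares of all genes are large, so a call between tissues is common for any gene, and the sizes below say more than the counts. The median log2 difference of all genes was -0.10 for kidney over left ventricle, -0.24 for kidney over skeletal muscle and -0.12 for left ventricle over skeletal muscle.

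Cd163, the receptor that takes up haemoglobin bound to haptoglobin (chr6:124304656-124330527, plus strand, GRCm38), showed the widest gap. The lowest, median and highest values over 8 libraries were 1.63, 1.96 and 3.10 CPM in kidney, 19.96, 24.4 and 33.8 CPM in left ventricle, and 10.2, 23.9 and 35.4 CPM in skeletal muscle. Every kidney was below every library of the other tissues. The log2 difference was -3.58 ± 0.20 for kidney over left ventricle (edgeR adjusted p = 1.6e-14) and -3.40 ± 0.20 for kidney over skeletal muscle (adjusted p = 3.5e-14); errors of log2 values are SE. For left ventricle over skeletal muscle it was 0.18 ± 0.18 and did not pass (edgeR adjusted p = 0.526).

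Mrc1 encodes the mannose receptor CD206, which clears glycoproteins and collagen fragments (chr2:14229392-14332057, plus strand). Its lowest, median and highest values were 5.49, 8.66 and 17.4 CPM in kidney, 33.7, 43.9 and 54.6 CPM in left ventricle, and 9.66, 31.3 and 37.96 CPM in skeletal muscle. The kidneys lay below all left ventricles, and the highest kidney (86-week replicate 12) was above 2 of the skeletal muscles. The log2 difference was -2.37 ± 0.20 for kidney over left ventricle and -1.68 ± 0.19 for kidney over skeletal muscle, and 0.68 ± 0.19 for left ventricle over skeletal muscle (edgeR adjusted p = 7.0e-11, 2.9e-08 and 0.0057).

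Cd209f belongs to the mouse group of C-type lectins related to DC-SIGN (chr8:4102787-4105835, minus strand), and its function is not well known. It was low in kidney, with 0.319, 0.751 and 1.58 CPM as lowest, median and highest, against 1.07, 2.26 and 4.85 CPM in left ventricle and 1.34, 4.53 and 7.44 CPM in skeletal muscle. The ranges of neighbouring tissues overlapped. The log2 difference was -1.48 ± 0.22 for kidney over left ventricle, -2.54 ± 0.22 for kidney over skeletal muscle and -1.06 ± 0.20 for left ventricle over skeletal muscle (edgeR adjusted p = 2.1e-06, 1.0e-10 and 1.4e-04). The order skeletal muscle, left ventricle, kidney was shared by its neighbour Cd209g, for which the 3 differences were -0.47 ± 0.14, -1.24 ± 0.14 and -0.77 ± 0.14.

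Cd209f and Cd209g are near copies that point away from each other on opposite strands, which matters for reading their counts. Of the 50-base stretches in Cd209f transcripts, 29.8% occur in Cd209g as well, and how reads matching both were assigned is not given in the sources used here. Their upstream regions are shown because the likeness runs into them. Of the 250 bases before each RefSeq start (GRCm38.p6), those in an annotated untranslated region (71 for Cd209f and 84 for Cd209g in GENCODE M21) are left out. The bases shown for Cd209f (chr8:4105836-4106014, minus strand) lie in none of its annotated exons, and those for Cd209g (chr8:4134486-4134651, plus strand) lie in an exon of another of its annotated transcripts. Both hold an unbroken run of 83 shared bases, in capitals. Over the full 250 bases the shared run is 154 bases long, ending at base -1 in Cd209f and -15 in Cd209g.
Cd209f: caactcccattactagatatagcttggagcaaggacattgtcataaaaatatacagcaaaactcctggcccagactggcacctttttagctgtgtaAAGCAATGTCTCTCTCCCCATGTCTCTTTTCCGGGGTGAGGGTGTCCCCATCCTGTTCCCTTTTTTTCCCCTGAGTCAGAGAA
Cd209g: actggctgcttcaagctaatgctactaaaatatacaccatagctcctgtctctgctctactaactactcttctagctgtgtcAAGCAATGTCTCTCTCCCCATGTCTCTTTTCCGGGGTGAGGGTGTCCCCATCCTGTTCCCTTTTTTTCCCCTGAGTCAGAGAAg

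Csf1r, the receptor for CSF1 and interleukin-34 on which macrophages depend, ran the other way. Its lowest, median and highest values were 36.5, 46.4 and 71.3 CPM in kidney, 26.3, 32.9 and 37.95 CPM in left ventricle, and 7.96, 16.5 and 23.9 CPM in skeletal muscle. Skeletal muscle lay below both other tissues, while kidney and left ventricle overlapped. The log2 difference was 0.55 ± 0.15 for kidney over left ventricle, 1.498 ± 0.15 for kidney over skeletal muscle and 0.95 ± 0.15 for left ventricle over skeletal muscle (edgeR adjusted p = 0.0045, 4.0e-09 and 1.3e-05). Exons of Csf1r overlap those of Hmgxb3 on the opposite strand over 873 bases, 15.1% of the exon length of Csf1r, and the strand setting of the counting is not stated. Hmgxb3 was itself higher in kidney, by 0.56 ± 0.08 over left ventricle and 0.52 ± 0.08 over skeletal muscle on the log2 scale (edgeR adjusted p = 2.4e-06 and 7.4e-06), and its part in the Csf1r counts was not tested.

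Adgre1 encodes F4/80, the adhesion receptor by which mouse macrophages are commonly sorted (chr17:57358691-57483527, plus strand). It had 4.14, 5.10 and 9.36 CPM as lowest, median and highest in kidney, 7.54, 8.88 and 12.2 CPM in left ventricle, and 2.11, 4.03 and 7.43 CPM in skeletal muscle. All left ventricles exceeded all skeletal muscles, and 1 kidney (86-week replicate 12) reached into the left ventricle range. The log2 difference was -0.75 ± 0.15 for kidney over left ventricle and 1.13 ± 0.15 for left ventricle over skeletal muscle (edgeR adjusted p = 1.4e-04 and 6.9e-07). That for kidney over skeletal muscle, 0.37 ± 0.15 (edgeR adjusted p = 0.0445), was lost when any of 5 mice was left out, with adjusted p between 0.0508 and 0.205.

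Aif1, which encodes the actin-bundling protein IBA1 (chr17:35170991-35176068, minus strand), did not pass between kidney and left ventricle. The lowest, median and highest values were 1.24, 1.97 and 3.38 CPM in kidney, 1.56, 2.09 and 3.20 CPM in left ventricle, and 0.896, 1.14 and 2.11 CPM in skeletal muscle. The ranges of all 3 tissues overlapped. The log2 difference was -0.16 ± 0.16 for kidney over left ventricle (edgeR adjusted p = 0.501), 0.68 ± 0.16 for kidney over skeletal muscle and 0.83 ± 0.16 for left ventricle over skeletal muscle (edgeR adjusted p = 0.0012 and 1.7e-04).

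Among the lysosomal and killing genes Lyz2 and Mpeg1 differed most. Lyz2, lysozyme M (chr10:117277331-117282321, minus strand), had 6.22, 10.6 and 39.1 CPM as lowest, median and highest in kidney, 33.8, 39.0 and 62.2 CPM in left ventricle, and 6.37, 16.1 and 34.9 CPM in skeletal muscle. Its log2 difference was -1.87 ± 0.26 for kidney over left ventricle and 1.40 ± 0.25 for left ventricle over skeletal muscle (edgeR adjusted p = 7.0e-07 and 6.1e-05). Only 1 kidney and 1 skeletal muscle reached the left ventricle range. The difference for kidney over skeletal muscle, -0.47 ± 0.25, did not pass (edgeR adjusted p = 0.125), and it passed without mouse 12 or mouse 17 of the 86-week group (-0.69 and -0.63, adjusted p = 0.0362 and 0.0463).

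Lyz2 also has a near copy, the intestinal lysozyme gene Lyz1, which shares 15.4% of its 50-base stretches. Within the 250 bases before the RefSeq starts the last 50 bases are the same in both genes, and 152 of the 250 positions match without gaps; 49 of those 50 bases lie in the annotated Lyz2 transcript. Lyz2 held 11.3 to 26.3 counts for each count of Lyz1 in kidney, 20.04 to 38.6 in left ventricle and 7.83 to 13.8 in skeletal muscle. Upstream sequences were at hand for 8 of the 10 markers. The core GAGGAA, or TTCCTC on the other strand, of sites bound by PU.1 occurred in 3 of these 8 (Mrc1, Aif1 and Cd68), against 23.3% of the 32851 upstream regions of that length in the RefSeq table. For 4 of the 8 (Cd209f, Mrc1, Aif1 and Lyz2) the window before the RefSeq start reaches into exons of the gene annotated by GENCODE. The only hit of Aif1 starts at base -7, among the 16 bases of its window that lie in an annotated Aif1 exon.

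Mpeg1, which encodes the pore-forming protein perforin-2 (chr19:12460779-12465283, plus strand), had 15.8, 18.99 and 42.1 CPM as lowest, median and highest in kidney. It had 8.82, 12.4 and 18.7 CPM in left ventricle and 3.41, 4.37 and 14.995 CPM in skeletal muscle. All kidneys exceeded all skeletal muscles. Its log2 difference was 0.79 ± 0.19 for kidney over left ventricle, 1.99 ± 0.20 for kidney over skeletal muscle and 1.20 ± 0.20 for left ventricle over skeletal muscle (edgeR adjusted p = 0.0014, 2.1e-09 and 1.5e-05).

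Cd68, the lysosomal membrane protein macrosialin (chr11:69664213-69666153, minus strand), had medians of 1.22 CPM in kidney, 2.40 CPM in left ventricle and 1.40 CPM in skeletal muscle. It was lower in kidney than in left ventricle by -0.78 ± 0.15 and higher in left ventricle than in skeletal muscle by 0.77 ± 0.15 on the log2 scale (edgeR adjusted p = 9.2e-05 and 1.7e-04). Kidney over skeletal muscle gave -0.01 ± 0.15 (edgeR adjusted p = 0.967). Gpnmb, a glycoprotein of lysosomes and phagosomes that lipid-laden macrophages make in quantity (chr6:49036546-49070929, plus strand), had medians of 2.65, 4.11 and 5.39 CPM in kidney, left ventricle and skeletal muscle. All kidneys were below all skeletal muscles (log2 difference -1.12 ± 0.14, edgeR adjusted p = 1.1e-07), and kidney over left ventricle gave -0.76 ± 0.14 (edgeR adjusted p = 5.2e-05). The small difference of left ventricle over skeletal muscle, -0.36 ± 0.14, passed narrowly (edgeR adjusted p = 0.0484) and was lost under 4 other settings, with adjusted p from 0.0565 to 0.163, and without any of 5 mice.

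Ratios of counts within a library, chosen after their values were seen, show the same contrast without normalisation between libraries. Cd163 to Csf1r was 0.0342 to 0.0674 in kidney, 0.669 to 1.08 in left ventricle and 1.01 to 1.64 in skeletal muscle. Mrc1 to Mpeg1 was 0.335 to 0.480 in kidney, 2.79 to 4.38 in left ventricle and 2.53 to 8.81 in skeletal muscle. For both ratios all 8 kidneys lay below every left ventricle and every skeletal muscle, at both ages.

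**Figure D2:**
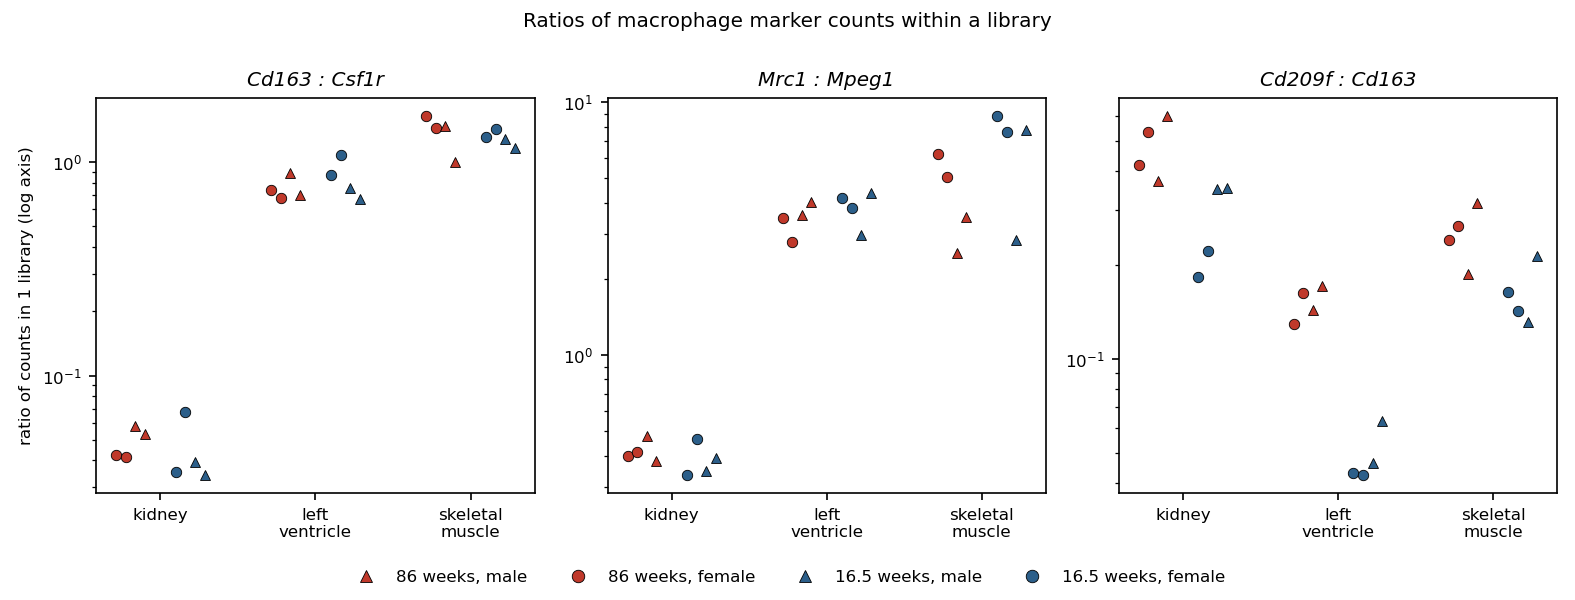
Ratio of the counts of 2 markers in each library (log axis) for kidney, left ventricle and skeletal muscle at 86 weeks (left of each pair) and 16.5 weeks, with triangles for males and circles for females. The kidneys sit lowest for Cd163 to Csf1r and Mrc1 to Mpeg1, and in left ventricle the 4 86-week libraries (0.129 to 0.172) sit above the 4 16.5-week libraries (0.0425 to 0.0633) for Cd209f to Cd163.

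Other macrophage genes differed between tissues by list, and the shares of all genes called were the 35%, 45.5% and 27.8% given above. Among 21 resident macrophage genes, 14 were lower and 3 higher in kidney than in left ventricle, with a median log2 difference of -0.70, and 14 were lower and 3 higher in kidney than in skeletal muscle (median -1.16). The summed level of the list went the other way, at 575 to 1238 CPM in kidney and 307 to 452 CPM in left ventricle. Of 18 lipid-associated macrophage and lysosome genes, 8 were higher and 5 lower in kidney than in left ventricle, and of 10 monocyte genes 3 were higher and 2 lower. F13a1, coagulation factor XIII A (-3.95 ± 0.22), and Lyve1, a hyaluronan receptor of perivascular macrophages and lymphatic vessels (-3.10 ± 0.13), were among the lower ones against left ventricle (edgeR adjusted p = 9.3e-15 and 5.3e-17). Gas6, a ligand that bridges dying cells to phagocytes and is made by many cell types, was higher in kidney by 1.75 ± 0.11 (edgeR adjusted p = 2.1e-13).

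Of 27 phagocyte core genes, 26 were higher in left ventricle than in skeletal muscle (median 1.02), among them Tlr4, the endotoxin receptor (2.26 ± 0.13), Sirpa, an inhibitory receptor for CD47 (1.51 ± 0.12), and Mertk, a receptor for dying cells (1.06 ± 0.10; edgeR adjusted p = 2.8e-14, 3.7e-11 and 2.6e-09). Against skeletal muscle 20 were higher and 2 lower in kidney (median 0.69), and against left ventricle 6 were higher and 13 lower in kidney (median -0.27). Mertk (2.43 ± 0.10) was higher and Tlr4 (-2.05 ± 0.12) lower in kidney than in left ventricle (edgeR adjusted p = 5.0e-17 and 7.3e-14). None of these genes is confined to macrophages in a whole organ.

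The ligands of Csf1r were split between tissues as well. Csf1 was lower in kidney than in left ventricle by -1.80 ± 0.12 and than in skeletal muscle by -0.32 ± 0.11, and higher in left ventricle than in skeletal muscle by 1.48 ± 0.12 on the log2 scale (edgeR adjusted p = 3.7e-13, 0.0247 and 3.5e-11). Il34, the second ligand, was higher in kidney than in left ventricle by 1.36 ± 0.13 and than in skeletal muscle by 0.84 ± 0.13 (edgeR adjusted p = 1.6e-09 and 4.8e-06). Left ventricle over skeletal muscle gave -0.52 ± 0.13 for Il34 (edgeR adjusted p = 0.0030). Among 12 macrophage transcription factors, 5 were higher and 2 lower in kidney than in left ventricle, 5 and 3 in kidney against skeletal muscle, and 1 and 4 in left ventricle against skeletal muscle, against 35%, 45.5% and 27.8% of all genes in either direction. Maf, which macrophages share with other cells, differed by 3.36 ± 0.11 for kidney over left ventricle and -3.94 ± 0.12 for left ventricle over skeletal muscle (edgeR adjusted p = 2.9e-19 and 6.1e-20).

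**Figure D3:**
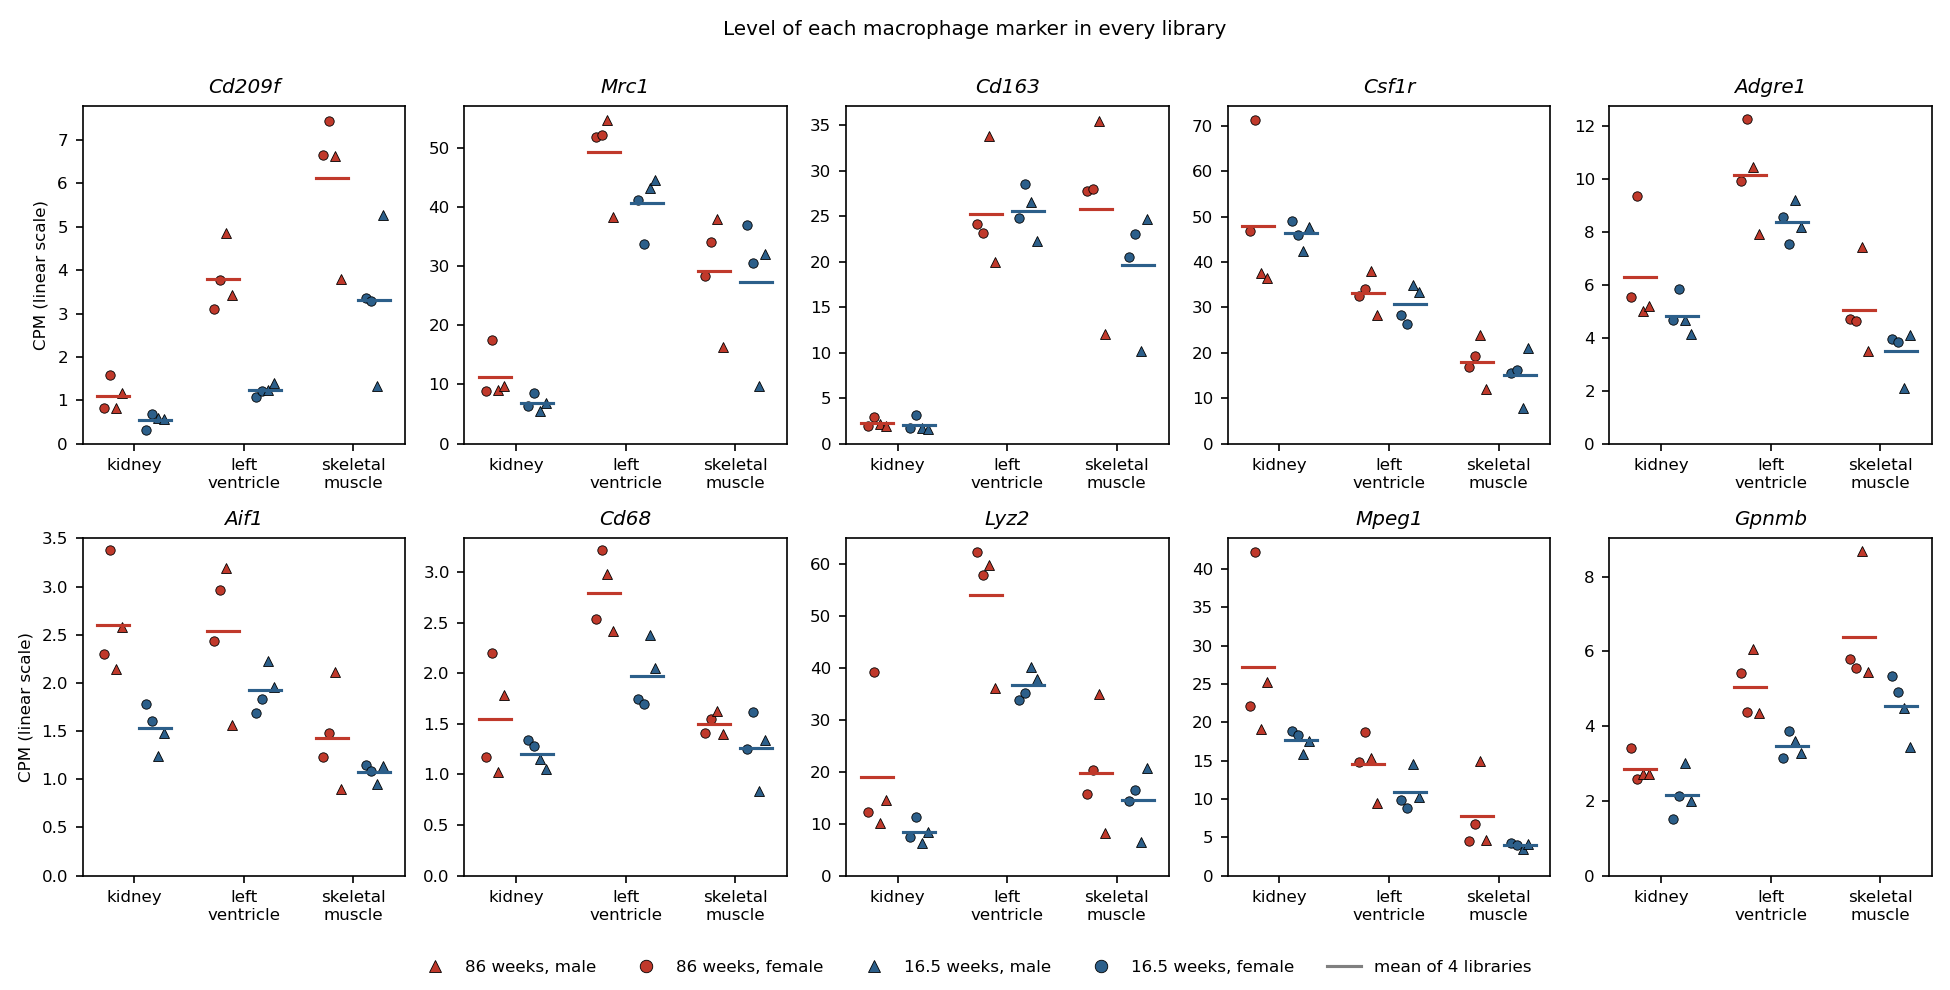
CPM (linear scale) of each marker in every library, with 86 weeks left of 16.5 weeks in each tissue, triangles for males, circles for females and a bar for the mean of 4 libraries. Cd209f in left ventricle ran from 3.12 to 4.85 CPM at 86 weeks and from 1.07 to 1.41 CPM at 16.5 weeks.

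With age, 1 marker in 1 tissue changed past the threshold by edgeR: Cd209f in the left ventricle was about 3.07 times as abundant at 86 weeks as at 16.5 weeks. For the other markers most log2 changes were positive, and none passed by edgeR after adjustment over all genes; DESeq2 called 3 of them in kidney, given below. The log2 change was positive for 10 of 10 markers in kidney, 9 of 10 in left ventricle and 10 of 10 in skeletal muscle, against 53.5%, 51.4% and 52.6% of all genes tested. The markers share their libraries and were chosen with earlier results of these data known. These are therefore not independent counts and no test of the set, and the same holds for the counts by tissue below. Median log2 changes were 0.54, 0.41 and 0.44 in the same tissues, against 0.02, 0.01 and 0.02 over all genes.

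**Figure D4:**
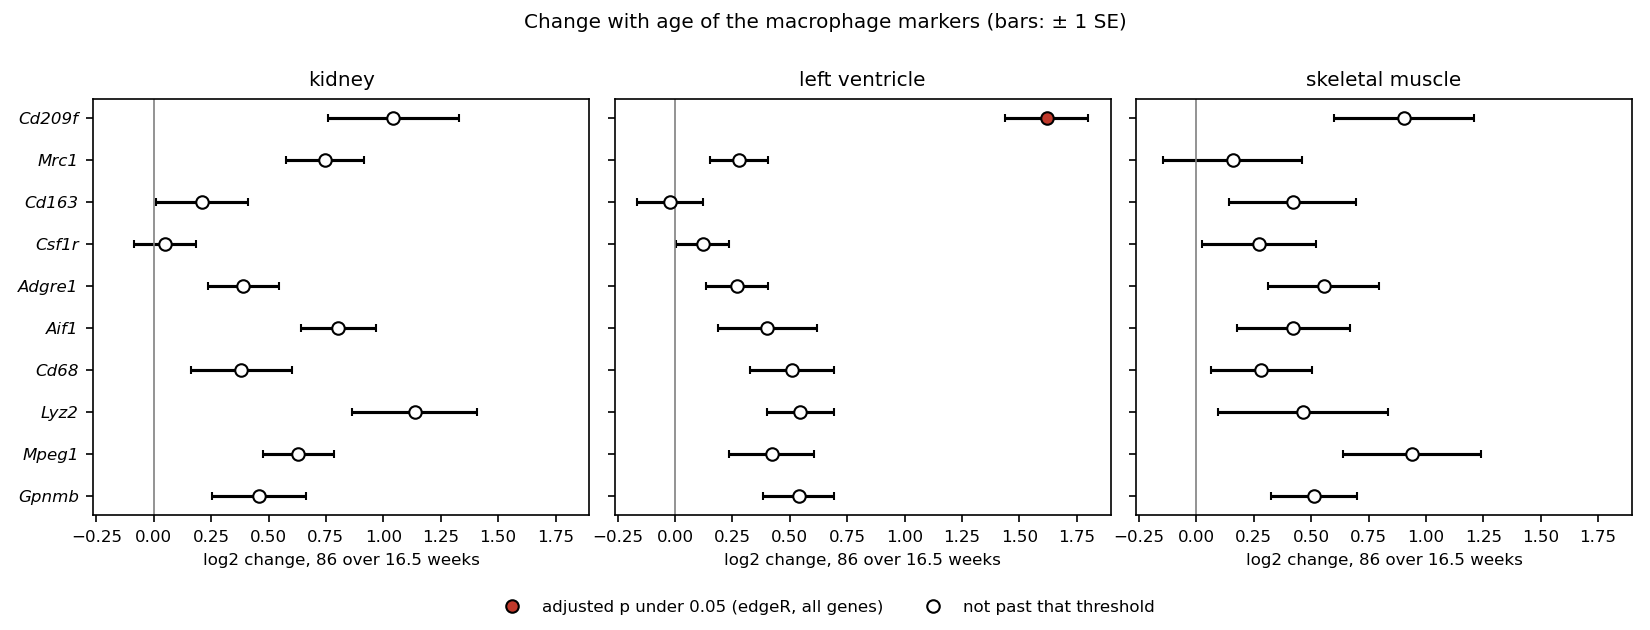
Log2 change of each marker, 86 over 16.5 weeks, with bars of ± 1 SE (8 libraries per tissue), in kidney, left ventricle and skeletal muscle; a filled point marks an edgeR adjusted p under 0.05 over all genes. Cd209f in left ventricle, at 1.62, is the filled point, and 1 value, Cd163 in left ventricle at -0.02, lies below 0.

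In the left ventricle Cd209f had 3.12, 3.77, 4.85 and 3.43 CPM at 86 weeks (replicates 11, 12, 14 and 17; 246, 300, 416 and 204 counts). At 16.5 weeks it had 1.07, 1.21, 1.23 and 1.41 CPM (replicates 14, 15, 19 and 20; 74, 102, 90 and 106 counts). The lowest old library was above the highest young one by more than the whole spread of the young group, in females and in males. The log2 change was 1.62 ± 0.18 (edgeR adjusted p = 3.4e-04), and Cd209f was 1 of the 30 genes higher with age, 0.0673% of the 44546 tested (33 in either direction, 0.0741%). It passed under every other setting (adjusted p from 1.8e-11 to 0.0220) and without each mouse in turn (1.51 to 1.71, adjusted p from 1.6e-04 to 0.0028).

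Lyz2 had 62.2, 57.8, 59.8 and 36.0 CPM in the 86-week left ventricles and 33.8, 35.2, 40.2 and 37.7 CPM in the 16.5-week ones. Old replicates 11, 12 and 14 were above all young mice, and old replicate 17 was among them. The log2 change was 0.55 ± 0.15 (edgeR adjusted p = 0.459), and without replicate 17 it was 0.72 ± 0.10 and passed (edgeR adjusted p = 0.0019). Replicate 17 was the lowest 86-week left ventricle for 9 of the 10 markers, all except Cd209f.

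Gpnmb had 5.41, 4.37, 6.08 and 4.35 CPM at 86 weeks and 3.15, 3.86, 3.60 and 3.27 CPM at 16.5 weeks, so that all old left ventricles were above all young ones. Its log2 change was 0.54 ± 0.16 (edgeR adjusted p = 0.641). Cd68 had 2.53, 3.22, 2.99 and 2.42 CPM at 86 weeks and 1.75, 1.70, 2.38 and 2.05 CPM at 16.5 weeks, again without overlap, by 0.51 ± 0.18 (edgeR adjusted p = 1.0). With Cd209f these made 3 of 10 markers whose old left ventricles were all above the young ones, against 1.29% of all genes.

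The remaining markers overlapped between ages in left ventricle. The log2 changes were 0.42 ± 0.19 for Mpeg1, 0.40 ± 0.22 for Aif1, 0.28 ± 0.13 for Mrc1, 0.27 ± 0.14 for Adgre1, 0.12 ± 0.12 for Csf1r and -0.02 ± 0.14 for Cd163. Unadjusted p was under 0.05 with higher levels at 86 weeks for 6 of the 10 markers, against 2.15% of all genes. The scavenger receptor Cd163, at 19.96 to 33.8 CPM at 86 weeks and 22.3 to 28.5 CPM at 16.5 weeks, overlapped between ages in the hearts where the lectin Cd209f did not.

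Set against Cd163 in the same library, Cd209f counts were 0.129 to 0.172 of Cd163 counts in the 86-week left ventricles and 0.0425 to 0.0633 in the 16.5-week ones. Set against its near copy Cd209g they were 1.24 to 1.63 at 86 weeks and 0.554 to 0.946 at 16.5 weeks. Neither ratio overlapped between ages, and both were chosen after their values were seen. They reuse the Cd209f counts and are no separate test of age, here or in the other tissues below. The log2 change of Cd209g itself was 0.55 ± 0.20 (edgeR adjusted p = 1.0). Of the lectins not followed as markers, Cd209b changed by 0.79 ± 0.25 and Clec10a by 0.64 ± 0.21 in left ventricle, the smallest p among the resident macrophage genes, and neither passed (edgeR adjusted p = 0.853 and 0.920).

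In kidney no marker passed by edgeR, against 0.112% of the 44572 genes tested (50 genes, 26 of them higher). Unadjusted p was under 0.05 with higher levels at 86 weeks for 7 of the 10 markers, against 4.44% of all genes. DESeq2, which called 231 genes for age in kidney, called 3 markers higher: Aif1 (adjusted p = 0.0095), Mrc1 (0.0180) and Mpeg1 (0.0494). Leaving out any mouse gave no call by edgeR, with a smallest adjusted p over the markers of 0.0669.

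Aif1 had 2.30, 3.38, 2.15 and 2.58 CPM in the 86-week kidneys and 1.79, 1.60, 1.24 and 1.48 CPM in the 16.5-week ones. All old kidneys were above all young ones, and the log2 change was 0.80 ± 0.16 (edgeR adjusted p = 0.0987). Mrc1 had 8.82, 17.4, 9.15 and 9.66 CPM at 86 weeks and 6.34, 8.51, 5.49 and 6.88 CPM at 16.5 weeks. These did not overlap either, with old replicate 12 far above the rest and old replicate 11 close to the highest young value, and the log2 change was 0.75 ± 0.17 (edgeR adjusted p = 0.163).

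Of the markers Lyz2 had the largest log2 change in kidney, 1.14 ± 0.27 (edgeR adjusted p = 0.198). Its values were 12.2, 39.1, 10.05 and 14.5 CPM at 86 weeks and 7.49, 11.2, 6.22 and 8.28 CPM at 16.5 weeks. Old replicate 12 was more than 2 times any other kidney, old replicate 14 lay within the young range, and without replicate 12 the log2 change was 0.66. Mpeg1 had 22.2, 42.1, 19.1 and 25.3 CPM at 86 weeks and 18.9, 18.3, 15.8 and 17.5 CPM at 16.5 weeks, a log2 change of 0.63 ± 0.15 (edgeR adjusted p = 0.204). Here too replicate 12 stood highest, and the groups were separated by less than 1 CPM.

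Cd209f was low in kidney, with 0.827, 1.58, 0.814 and 1.17 CPM at 86 weeks (74 to 142 counts) and 0.319, 0.687, 0.586 and 0.574 CPM at 16.5 weeks (27 to 51 counts). The ages did not overlap, and the log2 change was 1.04 ± 0.28 (edgeR adjusted p = 0.293). In all, 4 of the 10 markers had every old kidney above every young one, against 1.89% of all genes. Cd209f counts were 0.372 to 0.600 of Cd163 counts at 86 weeks and 0.184 to 0.352 at 16.5 weeks, and 0.436 to 0.793 of Cd209g counts at 86 weeks and 0.257 to 0.429 at 16.5 weeks. In skeletal muscle the ratio to Cd163 overlapped between ages, at 0.187 to 0.315 at 86 weeks and 0.131 to 0.213 at 16.5 weeks, while that to Cd209g, 1.35 to 1.66 at 86 weeks and 0.500 to 1.07 at 16.5 weeks, did not.

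The other kidney markers had log2 changes of 0.46 ± 0.20 for Gpnmb, 0.39 ± 0.15 for Adgre1, 0.38 ± 0.22 for Cd68, 0.21 ± 0.20 for Cd163 and 0.05 ± 0.13 for Csf1r. Kidney 86-week replicate 12 was the highest old kidney for 9 of the 10 markers, all except Gpnmb, and its markers were on average 0.83 above the kidney mean on the log2 scale. The same library was highest of the old kidneys in the summed levels of T and NK cell genes (14.99 CPM, others 9.71 to 10.96 CPM) and of B and plasma cell genes (379 CPM, others 60.7 to 67.2 CPM). It was lowest of them in neutrophil genes, at 3.32 CPM against 3.69 to 4.32 CPM. It also held the most cardiac RNA of any kidney, 35.3 CPM over 6 cardiomyocyte and atrial genes. The part of these in the marker values was not tested.

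**Figure D5:**
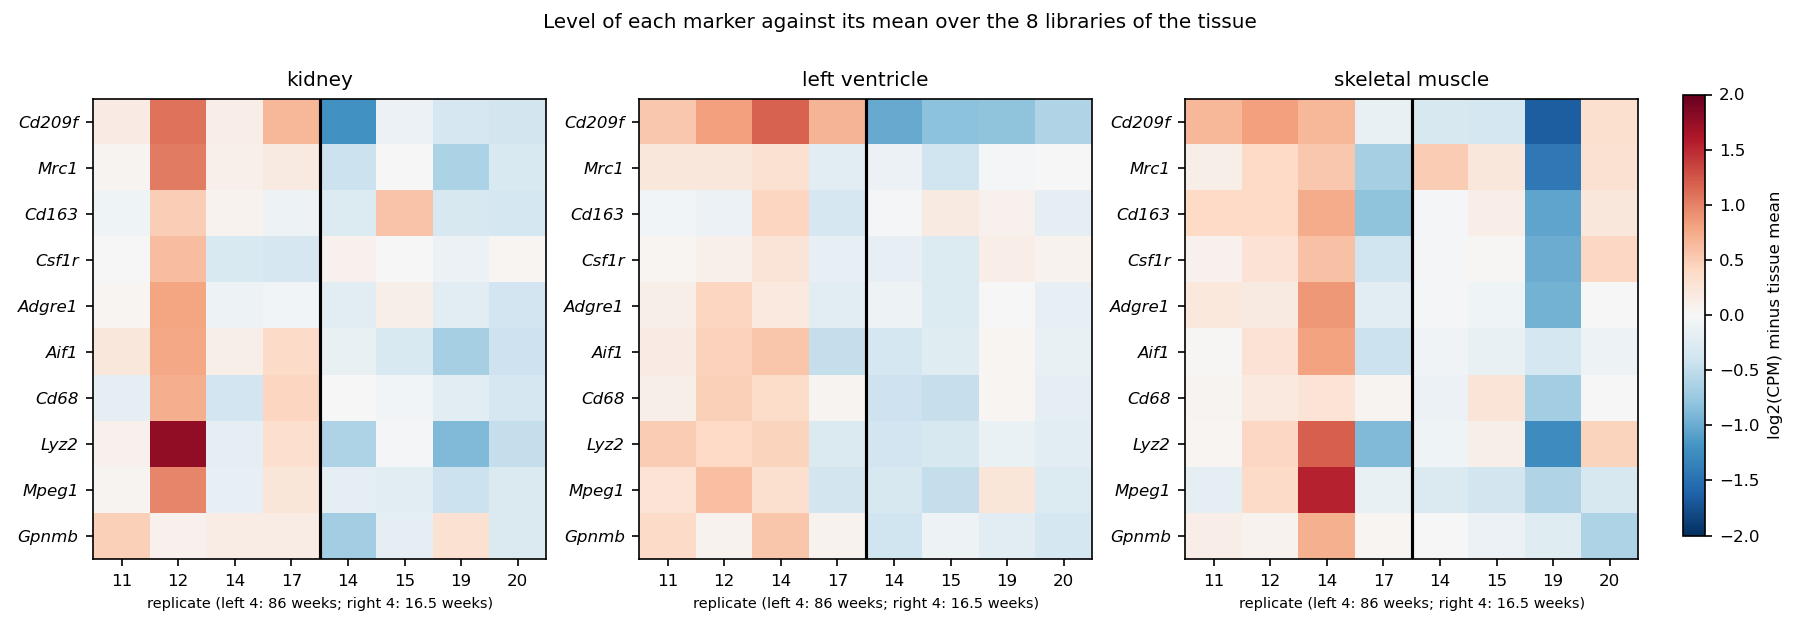
Log2(CPM) of each marker minus its mean over the 8 libraries of the tissue (colour), for kidney, left ventricle and skeletal muscle, with the 4 86-week replicates left of the line and the 4 16.5-week replicates right of it. Kidney 86-week replicate 12 is high in nearly every row, skeletal muscle 16.5-week replicate 19 is low in nearly every row, and Cd209f in left ventricle is high in all 4 old and low in all 4 young libraries.

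Skeletal muscle gave no call among the markers by edgeR or DESeq2, against 0.0183% of the 43711 genes tested by edgeR (8 genes). Unadjusted p was under 0.05 for 4 of the 10 markers, all higher at 86 weeks, against 3.33% of all genes in that direction.

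Mpeg1 had 4.54, 6.73, 14.995 and 4.64 CPM in the 86-week skeletal muscles and 4.1996, 3.998, 3.41 and 4.11 CPM in the 16.5-week ones. The ages did not overlap, but old replicate 14 alone was more than 2 times the next. The log2 change was 0.94 ± 0.30 (edgeR adjusted p = 0.729) and 0.45 without that mouse. Cd209f had 6.67, 7.44, 6.63 and 3.80 CPM at 86 weeks and 3.36, 3.29, 1.34 and 5.27 CPM at 16.5 weeks. Old replicate 17 lay below young replicate 20, and the log2 change was 0.90 ± 0.30 (edgeR adjusted p = 0.763). It was 1.40 without young replicate 20 (edgeR adjusted p = 0.0512) and 0.65 without young replicate 19.

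Gpnmb had 5.81, 5.57, 8.69 and 5.44 CPM at 86 weeks and 5.35, 4.91, 4.49 and 3.44 CPM at 16.5 weeks in skeletal muscle. The gap between the ages was 5.44 against 5.35 CPM, and the log2 change was 0.51 ± 0.19 (edgeR adjusted p = 0.820). With Mpeg1 this made 2 of 10 markers without overlap, against 1.43% of all genes. The remaining log2 changes were 0.55 ± 0.24 for Adgre1, 0.47 ± 0.37 for Lyz2, 0.42 ± 0.25 for Aif1, 0.42 ± 0.28 for Cd163, 0.28 ± 0.22 for Cd68, 0.27 ± 0.25 for Csf1r and 0.16 ± 0.30 for Mrc1.

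Some skeletal muscles stood apart. Replicate 19 at 16.5 weeks was the lowest young muscle for 9 of the 10 markers, with a mean deviation of -0.92 on the log2 scale, and replicate 14 at 86 weeks was the highest old muscle for 9, at 0.79. Without replicate 19 the median log2 change of the markers was 0.27, and without replicate 14 it was 0.18, against 0.44 with all mice. Replicate 17 at 86 weeks was the lowest old muscle for 9 of the markers, at -0.36, and without it the median was 0.60. The same mouse was lowest for 9 markers among the old left ventricles. On TMM-normalised library sizes its muscle had the lowest summed muscle fibre level, 108440 CPM against 139260 CPM or more in the other old muscles. The TMM factor of this muscle was 1.04, against 0.728 to 0.820 in the other muscles. A larger factor lowers every CPM of a library, the fibre sum included. That muscle also held the Myh6 trace of 342.9 CPM. Its cardiomyocyte and atrial genes summed to 428 CPM, against 104 to 142 CPM in the other old muscles and 162 to 675 CPM in the young ones. The part of these sums and of the TMM factor in its marker levels was not tested. Leaving out replicate 19 or replicate 14 turned the sign of Mrc1 (to -0.14 and -0.16), and leaving out replicate 14 also turned that of Lyz2 (to -0.08). Muscle of replicate 19 had the lowest summed fibroblast level of the young group, 271 CPM against 664 to 900 CPM, and the highest kidney epithelium level, 50.9 CPM against 10.6 to 11.97 CPM; their part in the low marker levels was not tested.

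Whether the change with age differed between tissues was tested in a fit of all 24 libraries. None of the 10 markers passed for any pair of tissues or for the 3 tissues together, where 0.0398% of 45182 genes did (18 genes, edgeR). By pair, 0.00885% of genes passed for left ventricle minus skeletal muscle, 0.0266% for kidney minus left ventricle and 0.0133% for kidney minus skeletal muscle. The age change of Cd209f was 0.75 ± 0.41 larger in left ventricle than in skeletal muscle, differed by -0.60 ± 0.43 for kidney minus left ventricle and by 0.14 ± 0.42 for kidney minus skeletal muscle (edgeR adjusted p = 1.0 for each, unadjusted p = 0.0776, 0.175 and 0.739). The call of Cd209f in left ventricle alone therefore does not show a change particular to the heart. No marker reached an unadjusted p under 0.05 for any pair of tissues, and DESeq2 called none.

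Broader lists set the markers beside other genes that macrophages make but that are not confined to macrophages in a whole organ. Of 27 phagocyte core genes the log2 change was positive for 26 in left ventricle, 25 in muscle and 23 in kidney, with medians of 0.25, 0.39 and 0.52. Of all genes 51.4%, 52.6% and 53.5% were positive in these tissues. Unadjusted p was under 0.05 with a higher level for 9, 5 and 18 of them, against 2.15%, 3.33% and 4.44% of all genes. Of the 27, 1 passed: Lilrb4a, an inhibitory receptor of myeloid cells, by 0.84 ± 0.14 in kidney (edgeR adjusted p = 0.0337), where 0.112% of all genes passed. DESeq2 called 1, 0 and 4 of them, all higher. Among those that did not pass, Itgb2, the beta chain of leukocyte integrins, changed by 0.69 ± 0.14 in left ventricle (edgeR adjusted p = 0.116). The summed phagocyte core level did not separate the ages: it was 194 to 263 CPM at 86 weeks and 179 to 204 CPM at 16.5 weeks in left ventricle, 74.4 to 135 and 60.5 to 102 CPM in skeletal muscle, and 282 to 409 and 312 to 339 CPM in kidney.

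Of 21 resident macrophage genes the change was positive for 19 in left ventricle, 16 in muscle and 16 in kidney (medians 0.34, 0.12 and 0.27). The shares over all genes were 51.4%, 52.6% and 53.5%. None passed by edgeR or DESeq2, with an unadjusted edgeR p under 0.05 and a higher level for 10, 4 and 4. All genes gave 2.15%, 3.33% and 4.44% here, and these shares also apply to the lists that follow. For 10 monocyte genes the medians were 0.13, 0.02 and 0.20, with none past the threshold by edgeR (unadjusted p under 0.05 and higher for 4, 1 and 3) and 1 lower in skeletal muscle by DESeq2. Ccr2, the chemokine receptor of classical monocytes, changed by 0.64 ± 0.16 in left ventricle and 0.57 ± 0.15 in kidney (edgeR adjusted p = 0.393 and 0.274). For 18 lipid-associated macrophage and lysosome genes the medians were 0.10 in left ventricle, 0.05 in muscle and -0.08 in kidney; unadjusted p was under 0.05 and the level higher for 4, 0 and 3 and lower for 3 in kidney, where DESeq2 called 1 higher and 2 lower. By edgeR none of these, of the 12 transcription factors (medians 0.13, 0.11 and 0.33) or of the 6 genes of the CSF1 and GM-CSF axis (0.10, 0.04 and 0.31) passed, and DESeq2 called none of the transcription factors and axis genes. Unadjusted p was under 0.05 and the level higher for 1, 1 and 5 of the factors and 0, 0 and 2 of the axis genes, and lower for 1 of the factors in each tissue, against 2.15%, 3.33% and 4.44% of all genes on the higher side. On the lower side 542 of all 44546 genes in left ventricle and 951 of 43711 in skeletal muscle had an unadjusted edgeR p under 0.05. The kidney share on that side is not given here. DESeq2 called 231 of all genes for age in kidney, in either direction. Csf1 changed by 0.47 ± 0.14 in kidney (edgeR adjusted p = 0.375).

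Lists of other immune cells also had positive medians with age in kidney. There the median log2 change was 0.60 for 9 T and NK cell genes (8 positive), 0.74 for 7 B and plasma cell genes (7 positive), 0.14 for 9 neutrophil genes and 0.15 for 7 dendritic cell genes. In kidney 53.5% of all genes were positive. None of these list genes passed by edgeR or DESeq2. An unadjusted edgeR p was under 0.05 with a higher level for 6, 6, 1 and 3, against 4.44% of all genes. T and NK cell genes summed to 9.71 to 14.99 CPM in the old and 6.86 to 8.39 CPM in the young kidneys, without overlap. Of all single genes, 1.89% had every old kidney above every young one. Medians in left ventricle were 0.23, 0.05, 0.13 and 0.09 for the same 4 lists, and in skeletal muscle 0.32, 0.43, -0.02 and 0.09. Fibroblast, endothelial and adipocyte lists had medians of 0.24, 0.07 and 0.15 in left ventricle, -0.04, -0.15 and 1.43 in skeletal muscle, and 0.30, -0.01 and -0.10 in kidney. By edgeR none of the genes of these 7 lists passed in any tissue. DESeq2 called 1 B and plasma cell gene in skeletal muscle and 1 adipocyte gene in kidney, both higher. For the cardiomyocyte and atrial, skeletal muscle fibre and kidney epithelium lists the medians were 0.75, 0.29 and 0.09 in kidney, 0.56, -0.17 and -0.24 in left ventricle, and 0.26, -0.21 and -0.25 in skeletal muscle. No gene of these passed by edgeR, with an unadjusted p under 0.05 and a higher level for 3 of the 6 cardiomyocyte and atrial genes in kidney, and DESeq2 called 1 of that list higher in kidney and 1 lower in skeletal muscle. None of the lists had its summed level at 0 in a library.

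By edgeR, DESeq2 and limma-voom no marker passed for males over females in any tissue; by edgeR 7.58% of all genes did in kidney, 0.871% in left ventricle and 1.36% in skeletal muscle. In left ventricle and skeletal muscle 0 of 10 markers had an unadjusted p under 0.05. In kidney the log2 difference was negative, that is lower in males, for 9 of 10 markers (52.4% of all genes), with an unadjusted p under 0.05 for 5, against 9.57% of all genes. Lists of other cells also had negative differences in kidney: 6 of 6 fibroblast genes (median -0.62, 2 passed), 7 of 8 endothelial genes (median -0.28, 2 passed) and 5 of 5 adipocyte genes (median -1.71, none passed by edgeR or DESeq2, 4 with an unadjusted p under 0.05). Their part in the marker differences was not tested. Lyz2 had 10.05 and 14.5 CPM in old males and 6.22 and 8.28 CPM in young males, against 12.2 and 39.1 CPM in old females and 7.49 and 11.2 CPM in young females. Its log2 difference of -0.74 ± 0.27 did not pass (edgeR adjusted p = 0.139). Without kidney replicate 12, an old female, the difference for Lyz2 was -0.34, the median over the markers was -0.19 against -0.38 with all mice, and 1 marker kept an unadjusted p under 0.05; without old female 11 Lyz2 passed at -0.93 (edgeR adjusted p = 0.0406).

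The age change did not differ past the threshold between males and females for any marker by edgeR or DESeq2, against an edgeR share of 0.0247% of all genes in kidney, 0.0157% in left ventricle and 0 in skeletal muscle. In left ventricle the age change of Mpeg1 was smaller in males by -0.85 ± 0.32 (edgeR adjusted p = 1.0, unadjusted p = 0.0144). Old males had 15.3 and 9.51 CPM of Mpeg1 and young males 14.5 and 10.2 CPM, while old females had 14.9 and 18.7 CPM and young females 9.89 and 8.82 CPM. Males of both ages thus covered 1 range, and old females lay above young females. The old male at 9.51 CPM was replicate 17, the lowest 86-week left ventricle for 9 of the 10 markers. In kidney the value for Csf1r was -0.62 ± 0.22 and in skeletal muscle that for Gpnmb was 0.77 ± 0.32 (edgeR adjusted p = 1.0 and 0.725). Old female 12 had the highest kidney level of Csf1r, 71.3 CPM, and old male 14 the highest muscle level of Gpnmb, 8.69 CPM. The part of single libraries in these values was not tested.

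To describe which genes moved with the markers, other genes with a mean of at least 1 CPM were ranked. The ranking was by how a gene's deviations from the tissue mean followed the average of the 10 markers over the 24 libraries. Closest of 16006 genes were C1qb (r = 0.96), Ctss (0.95), C1qa (0.94), Laptm5 (0.93), Cybb (0.92) and H2-Aa (0.92): complement C1q chains, cathepsin S, a lysosomal protein of blood cells, the phagocyte oxidase and an MHC class II chain. These r are descriptions over libraries that share mice and depth, and they do not test the label. Age was left in the deviations. Some libraries deviated strongly in the marker average: kidney and muscle of 86-week replicates 12 and 14 (0.83 and 0.79) and muscle of 16.5-week replicate 19 (-0.92). Each marker was also set against the mean of the other 9. Adgre1 and Lyz2 followed it most closely (both r = 0.94), Cd209f gave 0.78, Cd163 0.74 and Gpnmb, which other cell types also make, 0.50.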

How the data were processed

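Total RNA depleted of ribosomal RNA from 24 tissue samples was sequenced, and the authors deposited gene-level counts. Per the submitters' processing notes STAR 2.7.6a, StringTie 2.1.1 and GRCm38.p6 were used; the strand setting and the annotation release are not given in the sources used here. Of 55401 gene IDs, 54349 matched GENCODE M21 with the same version, which gave positions and exon lengths. The counts were used as deposited, without rounding, and no column of values was left out.

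For each tissue (8 libraries) age and sex were additive terms in edgeR 4.0.16 quasi-likelihood tests in R 4.3.3 after TMM normalisation and filterByExpr, and tissues in a fit of all 24 libraries with tissue, age and sex terms per tissue. P-values were two-sided, adjusted over all genes tested by the Benjamini-Hochberg method, with a threshold of 0.05. CPM are counts over library sizes normalised by TMM over all 24 libraries, and levels between genes are compared per kilobase of exon. Counts of genes without overlap between ages used these CPM. Tests of age and sex within a tissue used TMM over its 8 libraries, so their log2 changes can differ from ratios of CPM. Alternatives were DESeq2 1.42.0, limma-voom (limma 3.58.1), no low-count filter, RLE size factors, a minimum of 1 CPM in 4 libraries, omission of mitochondrial genes, no sex term, all libraries in 1 fit, the mouse as a block and each mouse left out.

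The mouse names in the sample titles recur in all tissues, so the replicate number pairs tissues of 1 animal. Paired residuals, left after additive age and sex terms within each tissue, were correlated over genes. The correlations were -0.01 to 0.23 for left ventricle with skeletal muscle, -0.13 to 0.03 for kidney with left ventricle and -0.11 to 0.03 for kidney with skeletal muscle. The ages hold different mice.

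The 10 markers and the 16 gene lists (161 entries) were chosen with earlier results of these data known. All 10 markers are named. From each list at most 3 genes past the threshold with the smallest p, or at most 2 as values, were named per comparison, besides near copies, genes with overlapping exons and the 6 genes most like the marker mean. Upstream sequences come from RefSeq (GRCm38.p6), without bases in annotated untranslated regions, and those of Adgre1 and Csf1r are not used here. Counts carry counting error only within a library; the spread over mice is in the SD and SE.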

Additional observations from a re-analysis of the deposited data

Results flagged for a closer look

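Within 60 groups of 4 libraries (10 markers, 3 tissues and 2 ages), a highest or lowest value stood apart from its group by Dixon's criterion in 8; chance gives this in about 1 in 20 groups. Kidney 86-week replicate 12 was such a highest value for Mrc1 (17.4 CPM, next 9.66), Adgre1 (9.36 CPM, next 5.53) and Lyz2 (39.1 CPM, next 14.5). Kidney 86-week replicate 11 was highest for Gpnmb (3.41 CPM, next 2.71), and kidney 16.5-week replicate 15 for Cd163 (3.10 CPM, next 1.74). In left ventricle 86-week replicate 17 was lowest for Lyz2 (36.0 CPM, next 57.8). In skeletal muscle 16.5-week replicate 19 was lowest for Adgre1 (2.11 CPM, next 3.84) and 86-week replicate 14 highest for Gpnmb (8.69 CPM, next 5.81).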

How the results depend on the processing

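Cd209f in left ventricle passed with age under all settings run. Counts of all genes past the threshold moved most. For age these were 33 genes in left ventricle (18 without the filter, 73 with DESeq2; 24 to 117 leaving out a mouse), 8 in skeletal muscle (0 without the filter, 89 with DESeq2, 1 without the sex term, 25 in 1 fit; 1 to 43) and 50 in kidney (1, 231, 0 and 29 under the same settings; 19 to 69). For sex they were 388 in left ventricle (725 without the filter, 18 at 1 CPM, 22 with limma-voom; 161 to 374), 594 in skeletal muscle (918 without the filter, 297 at 1 CPM; 345 to 718) and 3380 in kidney (2487 to 3841). For age by sex they were 7 in left ventricle (2 without the filter and at 1 CPM, 12 with DESeq2; 11 to 33), 0 in skeletal muscle (62 with DESeq2; 0 to 47) and 11 in kidney (1 without the filter, 34 with DESeq2; 6 to 33). For age changes between tissues they were 4 for left ventricle minus skeletal muscle (2 with RLE and without the filter, 21 with DESeq2; 1 to 11), 12 for kidney minus left ventricle (34 with DESeq2; 6 to 18), 6 for kidney minus skeletal muscle (1 without the filter, 27 with DESeq2; 1 to 23) and 18 over all 3 (7 with RLE, 5 without the filter; 6 to 26).

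With the mouse as a replicate block the counts were 12390 for left ventricle over skeletal muscle, 15584 for kidney over left ventricle, 19994 for kidney over skeletal muscle and 22 for age changes across tissues; the block changed no call among the markers. The log2 difference of Cd68 for kidney over skeletal muscle turned sign, to 0.0511 with RLE size factors, 0.0512 with DESeq2, 0.0312 without the filter and 0.0093 without mitochondrially encoded genes. Leaving out single mice turned signs as well: log2 values ran from -0.10 to 0.11 for that difference, with age from -0.22 to 0.0853 for Cd163 in left ventricle, -0.16 to 0.48 for Mrc1 and -0.0841 to 0.78 for Lyz2 in skeletal muscle and -0.12 to 0.14 for Csf1r in kidney, and from -0.33 to 0.44 for the age change of Cd209f, kidney minus skeletal muscle. None of these values was past the threshold with all mice, and the causes were not tested. Leaving out a mouse was tallied for all 10 markers with age and between tissues. For sex only Lyz2, Csf1r and Adgre1 in kidney were tallied, and for age changes between tissues only Cd209f. Over these values direction and side of the threshold were kept in 496 cases, with 10 calls lost, 4 gained and 18 turns of sign.

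Depth limits Cd209f in kidney (27 to 142 counts). Each age and sex has 2 mice, so 1 animal can move a value. Reads shared with Cd209g, Lyz1 and Hmgxb3 could not be separated in gene counts.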
